A study of Drosophila melanogaster with 3 samples.

Results

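Divergent promoters are places where 2 neighbouring genes start close together and are transcribed away from each other. The peaks described here are binding sites of Deadpan (Dpn) in fly embryos at such promoters. A pair was taken as divergent where the start of a minus-strand protein-coding gene lay at a lower coordinate than the start of a plus-strand gene, with at most 500 bp between them. A peak was counted where its summit, the base of highest enrichment as the authors deposited it, lay within 500 bp of a start of such a pair. This left 1095 of the 6253 peaks of the authors' thresholded set, or 17.5%. They made up 35.4% of the peaks near any protein-coding start. The other promoter peaks numbered 2000 and lay at starts in no such pair, called single-direction starts here. The remaining 3158 peaks lay farther from protein-coding starts. The annotation held 1995 divergent pairs, which took in 3815 of 13945 protein-coding genes.

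In the compact fly genome many housekeeping genes share a promoter region with a neighbour on the other strand. Such a region is usually a single stretch of open chromatin with a start at each end, and boundary proteins such as BEAF-32 and Chromator (Chro), and the promoter factor Dref, are known to bind there. Dpn, a repressor known from neural stem cells, belongs to the same class of basic helix-loop-helix proteins as Hairy, and members of the class are known to bind E-box forms such as CACGTG and CACGCG.

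Binding was measured by chromatin immunoprecipitation and sequencing (ChIP-seq) with an antibody against green fluorescent protein (GFP). All samples came from a transgenic Drosophila melanogaster line, strain dpn-GFP, that stably expresses Dpn with GFP at its C-terminus. Whole embryos of both sexes, 0 to 16 h old, were pooled, so cells of all types and ages contributed and no cell type can be assigned to a peak. There were 3 biological replicates of 1 group, with no second group to set against it. Whether the replicates came from separate collections is not given in the sources used here, so their spread may be partly technical. The relaxed list of each replicate was cut to its first 6253 peaks by signal, the number in the thresholded set, and held 1056, 1006 and 1110 divergent-promoter peaks in replicates 1, 2 and 3. The signal is the authors' enrichment value per peak in an undefined scale, so levels were compared only within a list. The sources used here do not give the read depth, and peaks of a control library were not analysed here.

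The sequences below span whole gaps, from the base after the minus-strand start to the base before the plus-strand start. They show what lies under strong summits only, at ranks 15 to 325 of the 6253 peaks. They were taken from gaps of 40 to 300 bp with no annotated exon and with a summit inside, in order of signal, and 340 such gaps were found on the arms searched. Of these, 61 (17.9%) held the word TATCGATA, the Dref site, and 25 (7.35%) held CACGTG or CACGCG. All are on the plus strand of dm6, read 5′ to 3′. In the first 4, capitals mark TATCGATA. The Atat/Shc gap is chr3L:9426759-9427009, fws/Lamtor3 is chr2L:17481030-17481230, Gmd/CG3792 is chr2L:4977024-4977311 and CG10628/Dus3 is chr2L:19758616-19758878.
Atat/Shc: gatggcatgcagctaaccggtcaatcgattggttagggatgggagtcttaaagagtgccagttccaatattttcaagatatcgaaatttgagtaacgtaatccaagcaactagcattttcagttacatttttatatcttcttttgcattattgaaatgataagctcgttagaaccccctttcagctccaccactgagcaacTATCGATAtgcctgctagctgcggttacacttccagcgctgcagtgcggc
fws/Lamtor3: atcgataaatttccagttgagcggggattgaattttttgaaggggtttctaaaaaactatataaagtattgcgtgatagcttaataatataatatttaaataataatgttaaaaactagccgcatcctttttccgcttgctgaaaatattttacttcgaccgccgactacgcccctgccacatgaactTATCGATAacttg
Gmd/CG3792: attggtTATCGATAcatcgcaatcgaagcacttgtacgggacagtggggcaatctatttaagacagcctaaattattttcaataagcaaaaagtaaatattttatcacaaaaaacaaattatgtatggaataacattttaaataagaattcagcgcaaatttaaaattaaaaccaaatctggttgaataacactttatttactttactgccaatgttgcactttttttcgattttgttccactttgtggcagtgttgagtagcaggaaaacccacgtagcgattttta
CG10628/Dus3: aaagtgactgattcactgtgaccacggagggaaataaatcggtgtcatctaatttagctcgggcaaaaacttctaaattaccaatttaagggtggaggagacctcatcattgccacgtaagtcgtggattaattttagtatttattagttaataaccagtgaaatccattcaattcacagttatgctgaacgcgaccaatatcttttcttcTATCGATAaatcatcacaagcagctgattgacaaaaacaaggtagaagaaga

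Next is the strongest such gap without TATCGATA, Art3/mRpS10 at chr3R:15229409-15229664. The last pair, Tcs5/CHMP2B at chr3L:5139396-5139618 and brm/Arl1 at chr3L:15982870-15983134, are the 2 strongest gaps with an E-box form. Capitals mark CGCGTG, which is CACGCG read on the other strand.
Art3/mRpS10: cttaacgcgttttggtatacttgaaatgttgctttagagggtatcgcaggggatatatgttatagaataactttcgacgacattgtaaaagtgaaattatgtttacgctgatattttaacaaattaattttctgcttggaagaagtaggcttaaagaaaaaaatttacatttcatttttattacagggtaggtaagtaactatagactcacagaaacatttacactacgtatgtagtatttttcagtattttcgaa
Tcs5/CHMP2B: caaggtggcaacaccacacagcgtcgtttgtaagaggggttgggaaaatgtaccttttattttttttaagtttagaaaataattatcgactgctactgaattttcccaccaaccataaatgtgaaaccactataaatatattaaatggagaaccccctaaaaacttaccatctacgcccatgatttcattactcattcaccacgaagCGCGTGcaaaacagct
brm/Arl1: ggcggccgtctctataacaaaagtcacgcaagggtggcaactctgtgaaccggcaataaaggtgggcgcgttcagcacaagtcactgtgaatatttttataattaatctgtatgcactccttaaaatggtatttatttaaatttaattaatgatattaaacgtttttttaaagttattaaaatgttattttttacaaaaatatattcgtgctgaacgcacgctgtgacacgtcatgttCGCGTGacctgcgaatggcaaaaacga

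In all 7 gaps the summit lay away from both starts. Counted from 1 at the left end, it was base 138 of 251 in Atat/Shc, 125 of 201 in fws/Lamtor3, 157 of 288 in Gmd/CG3792 and 93 of 263 in CG10628/Dus3. The TATCGATA word began at base 202, 189, 7 and 212 of these gaps, which is nearer to a start than to the summit in each. The summit was base 121 of 256 in Art3/mRpS10, 116 of 223 in Tcs5/CHMP2B and 117 of 265 in brm/Arl1. The GC content of the 7 gaps ran from 30.1% in Art3/mRpS10 to 43.0% in Atat/Shc. Atat encodes a tubulin acetyltransferase, Shc a signalling adaptor, Lamtor3 a subunit of the lysosomal Ragulator complex, CHMP2B an ESCRT-III protein, brm the ATPase of the SWI/SNF remodeller and Arl1 a Golgi GTPase.

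More divergent pairs than not had a Dpn summit at their promoter. A thresholded summit lay within 500 bp of a start in 1064 of 1995 pairs, or 53.3% (exact 95% binomial interval 51.1 to 55.5, which like all intervals below covers counting error only). The share was 50.9%, 48.9% and 54.2% in replicates 1, 2 and 3, a mean of 51.4% ± 2.68 (SD, n = 3). Over all protein-coding genes, 27.7% had a summit that close, and over the 10130 genes in no pair 17.5% did. Each replicate put divergent pairs above the single-direction genes, by 32.5, 32.9 and 36.6 percentage points, a mean difference of 34.0 ± 2.26 (SD, n = 3, exact two-sided sign-flip permutation p = 0.25). This p is the smallest that 3 replicates allow, so no comparison below can pass 0.05. The groups of replicate values did not overlap, with single-direction genes at 16.1% to 18.4%.

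A pair has more starts and a wider window than a single gene, so the density per length was compared as well. The windows around divergent starts covered 2399.96 kb and those around single-direction starts 12933.1 kb. Divergent windows held 0.441 ± 0.0217 summits per kb and the others 0.156 ± 0.0130 (SD, n = 3). The log2 ratio was 1.38, 1.55 and 1.56 in replicates 1, 2 and 3, a mean of 1.50 ± 0.10 (exact two-sided sign-flip permutation p = 0.25, higher in 3 of 3 replicates). Most occupied pairs had a single summit. There were 951 pairs with 1, 112 with 2 and 1 with 3, while 931 had none. The pair with 3 was RN-tre/mam on arm 2R, with a gap of 496 bp. RN-tre encodes a Rab GTPase-activating protein and mam encodes Mastermind, a coactivator of Notch.

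Counting pairs by replicate gave 812 with a summit in all 3, 220 in 2, 198 in 1 and 765 in none. A pair without a thresholded summit was often not empty. The relaxed list of the pooled replicates, which holds background by design, had a summit at 80.7% of pairs, and at 546 of the 931 pairs (58.6%) without a thresholded one.

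Occupancy differed with the distance between the starts. In a fixed window of 250 bp either side of the midpoint between the closest starts, the thresholded set had a summit at 38.9% of 429 pairs with gaps of 1 to 100 bp and at 42.0% of 357 pairs with gaps of 101 to 200 bp. The share was 60.7% of 542 pairs at 201 to 300 bp and 59.5% of 400 pairs at 301 to 400 bp. It was 45.3% of 267 pairs at 401 to 500 bp. In each replicate both middle classes stood above the 3 others. A window of the same width at single-direction genes held a summit in 12.9% when centred 100 bp upstream of the start and in 11.5% when centred on it. The highest replicate values of those were 13.6% and 12.5%, below the lowest replicate value of any gap class, 32.2%.

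**Figure D1:**
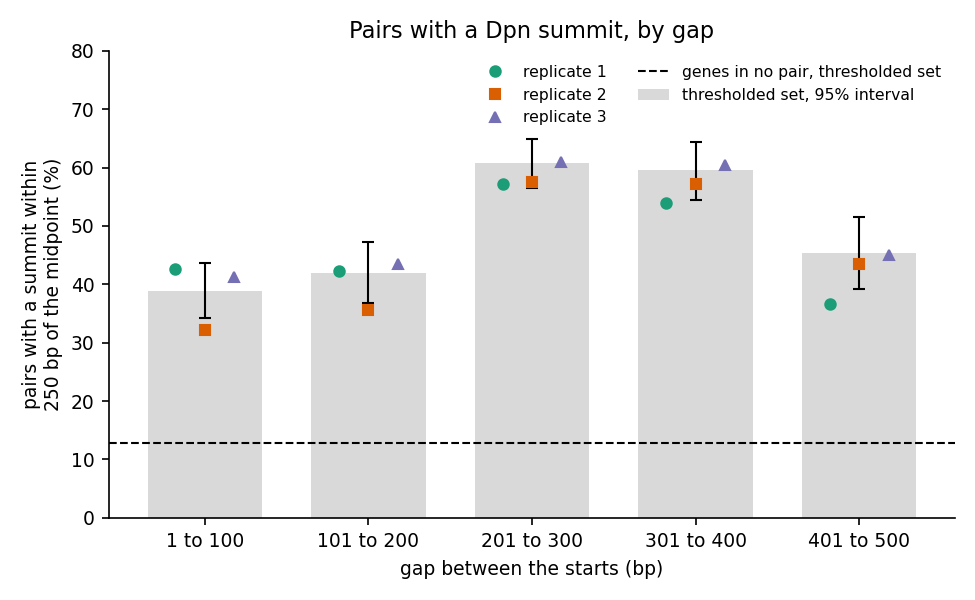
Share of divergent pairs with a summit within 250 bp of the midpoint, in percent, by the gap between the closest starts in bp. Bars are the thresholded set with exact 95% binomial intervals, points are the 3 replicates, and the dashed line is the 12.9% of single-direction genes in a window of the same width; pairs with gaps of 201 to 400 bp stand highest, near 60%.

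The 500 bp limit on the gap did not mark an edge in the data. A summit lay within 500 bp of a start in 45.7% of the 127 pairs with gaps of 451 to 500 bp, the widest included, and in 50.8% of the 118 pairs with gaps of 501 to 550 bp, the narrowest left out. By their closest starts, the narrowest pairs with a summit within 500 bp were dpa/didum on 2R and CG11710/mal on X, each with starts 2 bp apart, and CG3032/CG4593 on X, with starts 6 bp apart. The summit at dpa/didum (signal 588) lay between other annotated starts of these genes, 270.0 bp apart, and the one at CG11710/mal (353) between starts 462 bp apart. The summit at CG3032/CG4593 (426) lay outside its gap. dpa encodes a subunit of the MCM replicative helicase and didum a myosin V. By distance to the nearest start, 9 summits lay 451 to 500 bp away and 11 lay 501 to 550 bp away, just outside.

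Most summits sat between the starts of their closest pair, though some of these lay within an annotated gene. Of the 1095 members, 890 (81.3%, 78.8 to 83.5) lay in the gap, which made up 22.0% of the sequence in the divergent windows. Outside the gap, 104 lay on the side of the minus-strand gene and 101 on the side of the plus-strand gene. The share in the gap was 77.5%, 81.2% and 79.8% in replicates 1, 2 and 3. The median summit was 65.5 bp from the midpoint and 77 bp from the nearest start, with a median gap of 276 bp. Within 500 bp of both starts lay 1070 members (97.7%), so nearly every summit counted for both genes. As no gap was wider than 500 bp, this was fixed in advance for every summit inside a gap. At single-direction starts, 87.1% of summits lay upstream, at a median of 123 bp before the start.

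**Figure D2:**
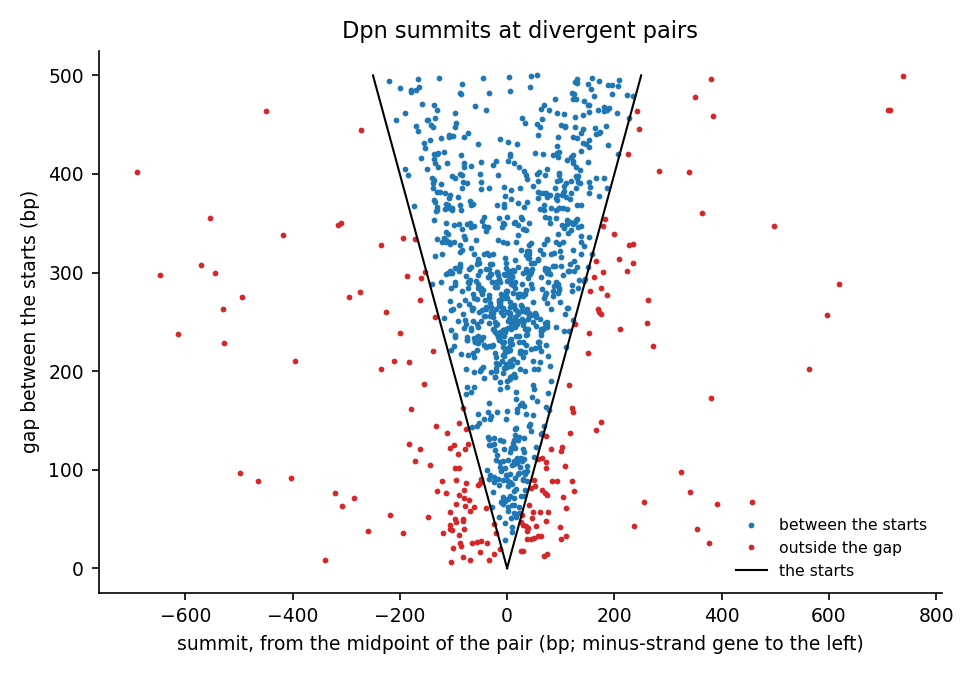
Position of each of the 1095 summits relative to the midpoint of its closest divergent pair (horizontal, bp, minus-strand gene to the left) against the gap between the starts (vertical, bp). Blue points lie between the starts (890), red points outside, and the black lines are the starts; in wide gaps the summits spread to both sides and leave the midpoint thinner.

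Where in the gap the summit fell changed with its width. With gaps of 1 to 100 bp, 35.5% of the summits lay inside. The share was 75.2% at 101 to 200 bp, 89.9% at 201 to 300 bp, 92.4% at 301 to 400 bp and 91.7% at 401 to 500 bp. The distance to the nearest start was 33 bp, 43 bp, 88 bp, 93 bp and 96 bp at the median in the same order. A narrow gap has less room for a summit and limits how far inside it a summit can lie from a start. Part of both trends therefore follows from the width itself, and how large a part was not tested. Of the summits inside, 68.8% lay in the central 50% of the gap at 201 to 300 bp and 40.6% did at 401 to 500 bp, which a uniform spread would put at 50%. The plot of summit position against gap shows the same spreading in wide gaps. For members that overlapped a replicate peak, the summit shifted by a median of 17, 17 and 7 bp to replicates 1, 2 and 3. The shift was at most 50 bp for 79.1%, 83.6% and 90.9% of them. The thresholded set was called on these same replicates pooled, so the placing is not an independent check.

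Divergent-promoter peaks tended to be strong. Their median signal in the thresholded set was 259, with a range of 123 to 2831, against 217 at single-direction starts and 197 away from starts. On the scale of percentile ranks within the list, the median was 60.2, 65.6 and 60.9 in replicates 1, 2 and 3, and 50.5, 53.4 and 51.2 at single-direction starts. The difference was 10.5 ± 1.38 percentile points (SD, n = 3, exact two-sided sign-flip permutation p = 0.25, higher in 3 of 3 replicates). It was 6.38 points with gaps of up to 1000 bp and 6.31 among the strongest 50% of the peaks. Members made up 24.8% of the strongest quintile of the thresholded set, then 21.0%, 15.8%, 13.5% and 12.4% of the following quintiles. They were 28 of the 100 strongest peaks and 5 of the 20 strongest, against 17.5% of the whole set. Single-direction promoter peaks, 2000 of the 6253, were 40 of the 100 strongest and 9 of the 20 strongest. Signal also differed with the gap. The median signal was 242, 241, 300.2, 258 and 219.7 in the 5 gap classes, from narrow to wide.

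The strongest member lay at Chro/Ssl1 (FBgn0044324 and FBgn0037202), chr3L:22878685-22879133. Its signal was 552, 929.9 and 1372 in replicates 1, 2 and 3, which put it at rank 10, 5 and 6 of those lists. Chro encodes a boundary and spindle protein and Ssl1 a subunit of the general factor TFIIH. The starts were 105 bp apart and the summit was not between them: it lay 92 bp into the side of Chro, in an annotated 5′ UTR.

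Pairs with a mitochondrial ribosomal protein gene followed. At mRpS23/CenG1A (FBgn0260407 and FBgn0028509), chr2L:13835255-13835668, the signal was 539, 885 and 1299.7 in replicates 1, 2 and 3, and the summit lay in the 492 bp gap, 115 bp from the start of CenG1A, a GTPase-activating protein gene. At Art3/mRpS10 (FBgn0038306 and FBgn0038307), chr3R:15229316-15229739, whose gap is printed above, it was 523, 766 and 1182. Art3 encodes an arginine methyltransferase. Both were among the first 21 peaks of every replicate.

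Next in order of signal came Pex11ab/CG8320 (2407), Tcs5/CHMP2B (2373), Fbw5/CG9147 (2282), CG5611/Mtl (2266), Atat/Shc (2166) and Pdrg1/Pal1 (2116). Pex11ab encodes a peroxisome protein, Fbw5 an F-box protein and Mtl a Rac-like GTPase. The other 11 of the 20 strongest were CG13390/CG17294, CG5757/CG5098, tank/CG12194, CG8372/CG8360, mRpL23/CG9004, Lon/PIG-F, Mkk4/SLIRP2, Coq4/CG32176, CG3437/CG3552, eIF4EHP/CG18428 and CG13018/CG13016, with signals down to 1419. Lon encodes a mitochondrial protease, PIG-F an enzyme of GPI anchor synthesis, Mkk4 a MAP kinase kinase and Coq4 a protein of coenzyme Q synthesis. All 20 were held by every replicate, and 19 ranked in the first 100 of all 3. The exception was CG13018/CG13016, at rank 102 in replicate 1. Of the 20, 13 had the summit between the starts, and none had TATCGATA within 50 bp of it.

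The weakest members lay at CG4390/mdlc (signal 122.6), MRG15/Tm1 (122.6) and CG17734/CG5214 (122.8), and none was held by all 3 replicates. MRG15 encodes a chromatin protein and Tm1 a tropomyosin. A member was held by a replicate where at least 1 bp overlapped one of the first 6253 peaks of that replicate. Over all thresholded peaks 68.1% were held by all 3. Over the members 835 were (76.3%, 73.6 to 78.7), and over single-direction promoter peaks 69.0%. By replicate, 87.9%, 87.0% and 95.1% of members were held. In the members of each quintile of the whole set by signal, 99.7%, 98.5%, 83.3%, 41.4% and 20.6% were held by all 3. For single-direction promoter peaks the shares were 100%, 96.7%, 83.3%, 45.4% and 14.75% in the same order, higher than the members in some quintiles and lower in others. Because the set was called on these same replicates pooled and each list was cut at the same rank, weak peaks fall to the limit by construction, and the support is not an independent check.

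The summits were poor in G and C and lay in a GC-rich surround. Within 50 bp of the summit the members had 34.6% GC, against 50.7% and 50.1% in windows of the same width centred 500 bp to the left and right. At single-direction starts the values were 36.7%, 43.8% and 43.5%. Away from starts they were 33.2%, 42.2% and 42.0%, so a low GC at the summit was not particular to the members. The divergent summits minus the single-direction ones gave −3.39, −1.76 and −1.98 percentage points in replicates 1, 2 and 3 (mean −2.38 ± 0.886, SD, n = 3, exact two-sided sign-flip permutation p = 0.25, lower in 3 of 3). Among the members, GC at the summit was 30.4% in the strongest quintile, then 33.0%, 35.4%, 36.7% and 37.2%. It was 39.6%, 37.4%, 32.2%, 33.2% and 34.8% in the 5 gap classes from narrow to wide. With pairs of at most 250 bp alone, the difference from single-direction starts was −0.22 points (p = 0.75 in the same exact permutation test).

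**Figure D3:**
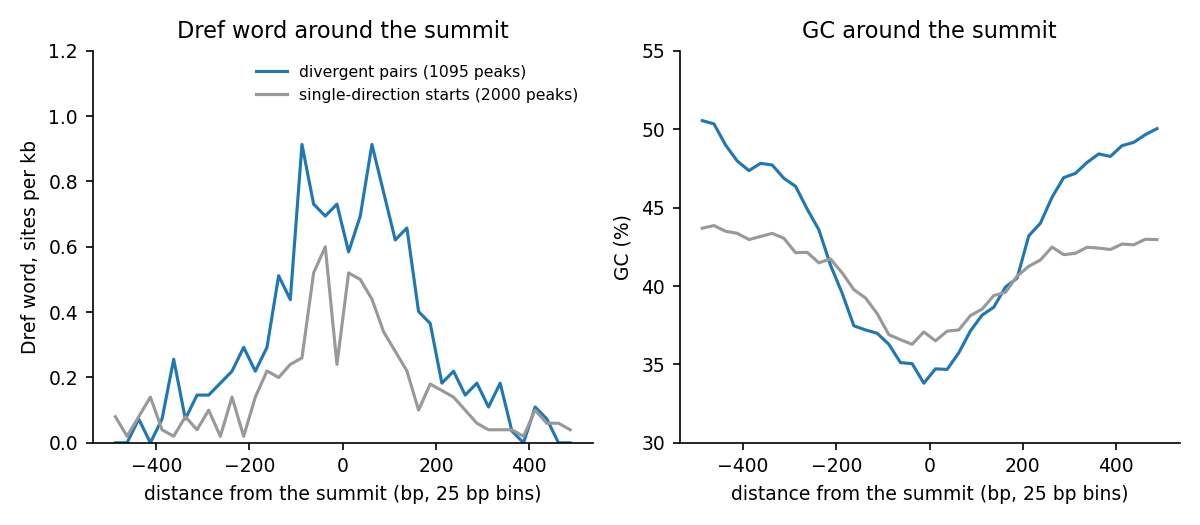
Left, sites of the Dref word per kb in 25 bp bins by distance from the summit in bp; right, GC content in percent in the same bins, for the 1095 peaks at divergent pairs (blue) and the 2000 at single-direction starts (grey). At divergent pairs the word is spread over about 150 bp either side of the summit, and GC falls from about 50% at the edges to 33.8% beside the summit.

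Among the 12 words counted, the Dref site TATCGATA had the largest ratio of its share at summits to its share in windows 500 bp away. This word reads the same on both strands and contains the core CGATA. It lay wholly within 50 bp of 68 member summits, or 6.21% (4.85 to 7.81), and in 2 of 1095 windows centred 500 bp away (0.183%). At single-direction summits the share was 4.0% and away from starts 0.190%. In replicates 1, 2 and 3 it was 6.91%, 4.87% and 6.49% at divergent and 4.35%, 3.30% and 4.00% at single-direction summits, a mean difference of 2.21 ± 0.553 points (SD, n = 3, exact two-sided sign-flip permutation p = 0.25, higher in 3 of 3). With 1 start per gene the difference was 1.32 points, and with summits within 250 bp of a start 1.38. The word was not centred on the summit. It lay within 500 bp of 291 members (26.6%), at a median distance of 92 bp.

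TATCGATA grew rarer as the peaks grew stronger. From the strongest to the weakest quintile of the members it lay at 1.37%, 4.11%, 7.76%, 7.31% and 10.5% of summits. Members with the word had a median signal of 194 and those without it 266. All 3 replicates had their lowest share in the strongest quintile, at 2.84%, 1.49% and 0.901%, a level that replicate 2 also had in the second. The highest was in the fourth in replicates 1 and 3 (9.95% and 10.4%) and in the weakest in replicate 2 (7.92%). Single-direction summits went the same way, from 1.25% in the strongest quintile to 6.25% in the weakest. Peaks are not independent replicates, so this is a description. GC rose over the same quintiles, and its part in the result was not tested.

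**Figure D4:**
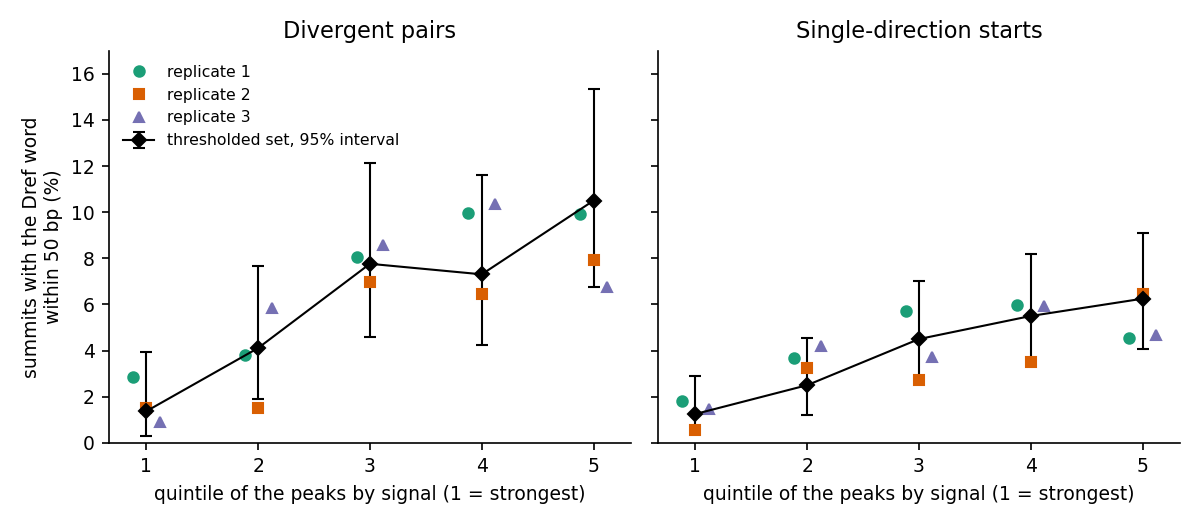
Share of summits with the Dref word within 50 bp, in percent, by quintile of the peaks by signal (1 is the strongest), at divergent pairs (left) and single-direction starts (right). Black diamonds are the thresholded set with exact 95% binomial intervals and coloured points the 3 replicates; the strongest quintile is lowest in both panels, at 1.37% and 1.25%.

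The word also followed the gap. It lay at 13.5% of summits in gaps of 1 to 100 bp, at 8.76% in 101 to 200 bp, 2.81% in 201 to 300 bp, 6.47% in 301 to 400 bp and 4.14% in 401 to 500 bp. Its shares around the midpoint of pairs with and without a summit were close. In the 101 bp around the midpoint TATCGATA was found at 5.92% (4.58 to 7.51) of pairs with a summit and at 6.87% (5.33 to 8.69) of pairs without. For genes in no pair, the 101 bp just upstream of the start held it at 8.55% (7.29 to 9.95) of genes with a summit and 3.59% (3.20 to 4.01) of those without. Over all 13945 genes that share was 6.30%. The windows of pairs and of single genes lie differently to the starts, so their shares are not like for like. Pairs with and without a summit also differed in gap, and the part of the gap was not tested.

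Other words were counted on either strand in the same windows. CGATA lay at 30.3% of member summits and 11.1% of the windows 500 bp away. TAGCTA was at 5.39% and 0.822%, and ACACTG at 9.59% and 3.56%. The TATA-box word TATAAA was at 21.3% and 4.20%. Unlike the Dref word it was most frequent at strong members, with 31.1% in the strongest quintile and 18.3% in the weakest. Single-direction summits also had their highest share of TATAAA in the strongest quintile, at 26.5%. Over all single-direction summits CGATA was at 25%, TAGCTA at 3.9%, ACACTG at 10.1% and TATAAA at 19%. Away from starts the shares were 10.1%, 2.63%, 7.41% and 22.2% in the same order. A high share of ACACTG or TATAAA was therefore not particular to the members. GGTCACACT, a form of the M1BP site, was at 2.10% of member summits and 0.183% of the windows 500 bp away. It was at 1.8% of single-direction summits and 0.190% of summits away from starts. The E-box forms were rare, with CACGTG at 1.37% of summits and 2.19% of the distant windows, and CACGCG at 1.28% and 3.47%. CACGTG was at 0.9% of single-direction summits and 0.538% of summits away from starts, and CACGCG at 1.75% and 0.792%. CAGCTG was at 5.94% and 7.67%, the N-box CACNAG at 12.5% and 16.0%, the GAGA factor core GAGAG at 7.67% and 13.0%, and the Zelda site CAGGTAG at 0.183% and 1.10%. In the same order these were at 5.1%, 11.25%, 9.75% and 0.25% of single-direction summits. Away from starts the shares were 2.50%, 8.93%, 9.34% and 0.443%. Within 50 bp of the midpoint of all 1995 pairs, the share of CGATA was 27.0%, that of TATAAA 22.8%, that of CACGTG 1.05% and that of CACGCG 1.45%. There, CACGTG was at 1.50% (0.862 to 2.43) of pairs with a summit and 0.537% (0.175 to 1.25) of pairs without. CACGCG was at 1.32% (0.721 to 2.20) and 1.61% (0.904 to 2.64). GC fell from the surround to the summits, while some words were more frequent at the summits and others less. The part of GC in the word shares was not tested.

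Genes of basic cell machinery were counted by list, with members matched by symbol and paralogs included. Of the 3815 genes in divergent pairs, 2086 (54.7%) had a thresholded summit within 500 bp of a start, and this is the background for the counts that follow. Cytoplasmic ribosomal protein genes had 27 of 33, led by RpS27/Nup37 (signal 789.97), RpL34b/CG8132 (789.1), Ripalpha/RpL7 (777) and CG17271/RpS20 (749.7). Outside pairs 32 of 55 of them had a summit. Mitochondrial ribosomal protein genes lay in divergent pairs more often than not, 53 of 73, and 35 of these had a summit, against 8 of the 20 outside pairs. After mRpS23, mRpS10 and mRpL23 (1689.8) came mRpS2/Mon1 (854).

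Energy metabolism and protein turnover followed the background more closely. Nuclear genes of oxidative phosphorylation had 21 of 38 in pairs and 5 of 42 outside, which compares with 17.5% of all genes outside pairs. TppII/ND-MWFE (770.4), corolla/ND-24 (523), glo/COX5A (512) and ATPsynCF6/Sec13 (499) led. ND-MWFE and ND-24 encode subunits of complex I, COX5A one of complex IV and ATPsynCF6 one of the ATP synthase. Proteasome subunit genes had 11 of 24 in pairs, led by l(2)37Bb/Rpn3 (545), Hat1/Rpn5 (507), Rpn6/ave (394) and Rpn13/CtsL1 (269), and 4 of 24 outside.

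Lists of translation and transcription factors ran from 7 of 18 to 6 of 8 of their genes in pairs with a summit. Translation initiation factor genes had 7 of 18 in pairs and 9 of 26 outside, led by eIF4EHP/CG18428 (1447), a repressor that binds the mRNA cap, eIF3h/senju (647), RpL28/eIF1 (411) and eIF5B/armi (345). Aminoacyl-tRNA synthetase genes had 11 of 20 in pairs and 5 of 12 outside, led by SerRS/CG17260 (803), Hem/IleRS (582), Patsas/ThrRS (531) and Nmda1/AspRS (317). Mediator genes, which link transcription factors to RNA polymerase II, had 9 of 17 in pairs and 2 of 8 outside, led by MED30/Rev1 (961), elm/MED27 (809), CG12321/MED17 (628) and MED7/Cap-H2 (437). Of the chromatin boundary and promoter factors 6 of 8 in pairs and 3 of 7 outside had a summit, and those in pairs were Chro, Cp190 (1019), M1BP (566), pzg (269.7), Dref (263) and su(Hw) (133).

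**Figure D5:**
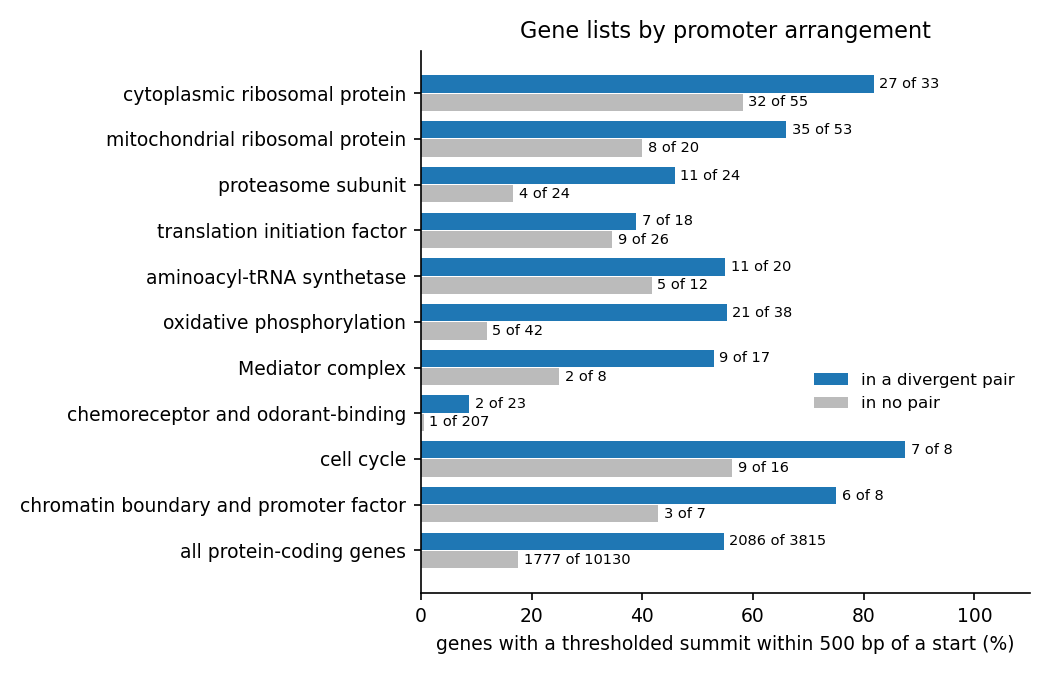
Share of genes with a thresholded summit within 500 bp of a start, in percent, for lists with at least 8 genes in divergent pairs and at least 7 outside. Blue bars are genes in a divergent pair and grey bars genes in none, with the counts beside them; the blue bar is the longer in each list shown, from 2 of 23 chemoreceptor genes to 7 of 8 cell cycle genes.

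The cell cycle, developmental and tissue-specific lists had between 0 and 23 members in divergent pairs. Cell cycle genes had 7 of 8 in pairs and 9 of 16 outside, led by dup/SRPK (416), Fsn/Dp (332), CG3281/aurA (317) and Cdk1/mRpS7 (256), which encode a replication licensing factor, the E2F partner, a mitotic kinase and the mitotic cyclin-dependent kinase. Notch pathway genes had 4 of 5 in pairs and 6 of 13 outside, and those in pairs were mam (212), pen-2 (166), neur (139) and Su(dx) (138). Of 20 genes known from neuroblasts, the neural stem cells, 3 lay in pairs and all 3 had a summit, against 4 of 17 outside. Those in pairs were par-6 (484) and aPKC (311), of the cortical polarity complex, and brat (172.6), a translational repressor. The list of 10 proneural genes had no member in a divergent pair, and 2 of the 10 had a summit. The Hairy and Deadpan family had 1 of 13 and the neuronal differentiation genes 1 of 15 in pairs, neither with a summit. Outside pairs 3 of 12 and 1 of 14 of these had one. Of 230 chemoreceptor and odorant-binding protein genes 23 lay in pairs and 2 had a summit, Ir60e/CG13585 (265) and Gr63a/Lamtor4 (160.1). Of 111 cuticle protein genes 3 lay in pairs and 1, Lcp9 (165), had a summit.

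Divergent arrangement bears on which gene a peak is assigned to. A start within 500 bp of a member was found for 2025 genes, and 829 of these were the nearest gene of no thresholded summit, so a rule that takes the nearest start leaves them out. Most member summits lay outside annotated genes (68.3%), 19.8% in a 5′ UTR, 10.1% in an intron and 6 in coding sequence. Genes of pairs with a summit had a median length of 2453 bp and those of pairs without 1935 bp. For genes in no pair the medians were 4230.0 bp with a summit and 1898 bp without.

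Pairs on 3R had a summit most often and those on X least often among the large arms, in the thresholded set and in each replicate. The share of pairs with a summit was 50.4% on 2R, 55.6% on 3L, 58.7% on 3R and 49.5% on X. On 2L, 194 of 388 pairs had one, and on chromosome 4 it was 1 of 7. In replicates 1, 2 and 3 the share was 55.9%, 54.8% and 59.6% on 3R and 42.2%, 41.5% and 47.1% on X. Members made up 12.2% of the thresholded peaks of X and 17.4% to 20.8% of those of the other large arms.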

How the data were processed

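The peak lists used were those on dm6, 1 per replicate, 1 relaxed list of the pooled replicates and 1 thresholded set. Per the deposited text listings, the relaxed lists were called with a control and meant for the irreproducible discovery rate (IDR) step, and the thresholded set came from the 3 replicate lists and the pooled list. The aligner, the peak caller and the IDR limit are not given in the sources used here. Ranks within a list rest on the signal column that the authors deposited. Their −log10 q-value column, also deposited, gave no ranks. Summits were taken from the deposited offset. Chromatin was sonicated, with fragments of 200 to 800 bp per the labels.

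Genes and starts came from Ensembl release 115 (BDGP 6.54, 19607 starts of 13945 protein-coding genes on 2L, 2R, 3L, 3R, 4 and X), and sequence from RefSeq's Release 6 of the genome, which is dm6. Coordinates are 1-based. Words were searched within 50 bp of a summit and in a window 500 bp away, on alternate sides. Comparisons used an exact two-sided sign-flip permutation test over the 3 replicates, checked on simulated data, with no test over peaks. The list of 16 gene sets was matched by symbol. Python 3.11.15, numpy 2.4.6, pandas 2.3.3 and scipy 1.17.1 were used.

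The members, gene lists and words were chosen with earlier results of these data known. Named pairs are those at the 20 strongest members, with 3 or more summits, with the 3 smallest gaps, and up to 4 per gene list by signal, besides the 3 weakest members, which were added as the values just inside the set's limit, and the 6 factor genes with a summit, of which the last 2 were named after their values were seen. Alternatives changed the gap, the distance to a start, the starts, the number of peaks, the window and the replicates. Peak lists on dm3 were not analysed here.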

Additional observations from a re-analysis of the deposited data

How the results depend on the processing

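No alternative reversed the mean of a comparison with single-direction starts, and none could pass 0.05 with 3 replicates. With gaps of at most 250 bp the GC difference shrank from −2.38 to −0.22 points and the replicates no longer shared a sign (exact sign-flip permutation p = 0.75); with summits within 250 bp it was −3.83. The median peak width differed by 0 bp, and by −6.83 bp in the strongest 50% of the peaks. The 0 bp was fixed in advance, because most peaks of a list had the same width. In the replicates that width was held by 65.6% to 85.4% of members and 70.6% to 87.2% of single-direction promoter peaks. The medians therefore cannot show whether the widths were alike. The share of summits between the starts, 79.5% as the mean of 3 replicates, was 59.0% with gaps of at most 250 bp, 81.7% with gaps of at most 1000 bp, 81.9% with summits within 250 bp, 81.7% with summits within 500 bp of both starts, 75.9% with 1 start per gene and 81.5% with the strongest 50% of the peaks. The number of members, 1095, was 492 with gaps of at most 250 bp and 673 with the strongest 50% of the peaks. The share of members held by all 3 replicates, 76.3%, was 65.7% where summits had to lie within 100 bp, 51.4% where at least 50% of each peak had to overlap, and 97.7% with all peaks of the relaxed lists, a setting chosen after seeing the data. It ran from 78.2% to 84.6% with 1 replicate left out, where only 2 had to hold a peak. The excess of TATCGATA, 2.21 points, was 1.32 with 1 start per gene, 1.38 with summits within 250 bp, 0.948 with windows of 25 bp either side and 5.48 with 100 bp. The difference in signal rank, 10.5 points, was 6.38 with gaps of at most 1000 bp and 6.31 with the strongest 50% of the peaks. Summits per kb within 500 bp of both starts was not run, since that window has another length. Read depth is unknown, so a pair without a summit cannot be called unbound.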
